A study of Bos taurus with 16 samples.

Results

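The genes described here encode the nuclear subunits of the mitochondrial respiratory chain and ATP synthase, with the assembly factors and related proteins that share their names. They were taken from the array's annotation by symbol: every symbol starting with NDUF, UQCR or ATP5, or with COX followed by a digit, and SDHA, SDHB, SDHC, SDHD and CYC1. This gave 91 genes of the 9155 named, each read from a single probe set, the brightest on average where a gene has several. Complex I holds 40 of them, complex II 4, complex III 9, complex IV 21 and complex V (ATP synthase) 17. By role, 78 are structural subunits and 13 are assembly factors, related proteins or the inhibitor of ATP synthase. The subunits encoded in mitochondrial DNA, and COX4I2, COX6B1 and COX7B, are not analysed here.

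The RNA came from theca interna cells, the androgen-producing layer of the follicle wall, of adult cattle. For each experiment the cells of about 50 follicles of 4 to 6 mm were pooled, so that no array stands for a single animal, and were kept in serum-free culture for 6 days. The 4 groups received, for 4 days from day 3, no hormone (control), 160 pg/ml luteinising hormone (LH), 10 ng/ml bone morphogenetic protein 6 (BMP6), or both at these doses (LH+BMP6). Each group holds 4 Affymetrix bovine arrays from 4 repeats of the experiment on different batches of ovaries.

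The respiratory chain passes electrons from NADH (complex I) and succinate (complex II) through ubiquinone, complex III and cytochrome c to oxygen at complex IV, and pumps protons across the inner mitochondrial membrane. ATP synthase lets the protons flow back through a ring of c subunits and uses the energy to make ATP in its catalytic head. In steroid-producing cells the same membrane also holds CYP11A1, the enzyme that starts steroid synthesis from cholesterol.

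Values are log2 signals, and a difference between groups is a log2 change ± SE with n = 4 arrays per group. A gene is called higher or lower at an adjusted p under 0.05 in limma, adjusted over all 24016 probe sets. The probe sets of the 91 genes had mean signals from 4.40 (COX6A2) to 12.40 (ATP5F1A), with 51 over 10 and 7 under 7. For comparison, the lower quartile of the arrays lay between 4.31 and 4.43. A signal is not a transcript count, and levels of different probe sets are not set against each other as amounts of RNA. Precision is limited by the number of arrays: the SE of a change had a median of 0.102 over all 24016 probe sets. In 3 arrays without BMP6 (control 1, control 3 and LH 1) the hybridisation controls (9 probe sets) averaged 9.23 to 9.32, and on the 13 others 10.46 to 10.72.

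With BMP6 most respiratory chain genes were lower. Against control, 70 of the 91 fell and 1 rose, where 15.5% of all named genes were called lower and 9.31% higher. The median change was -0.35, against -0.02 over all genes, and 87 of the 91 changes were negative. With LH present the count was 71 lower and 1 higher in LH+BMP6 against LH (15.5% of all genes lower, 11.7% higher), and the median change was -0.33 against -0.03 over all genes. Of the 7092 genes left after dim probe sets were removed, 21.7% and 21.3% were called lower. None of these shares is matched for signal, since the median mean signal was 10.23 for the 91 genes and 7.42 for all named genes. The 90 members left under the filter had median changes of -0.35 and -0.33. Averaged over the 91 genes, the signal per array was 10.05 to 10.11 in control and 10.08 to 10.21 with LH. It was 9.71 to 9.80 with BMP6 and 9.77 to 9.80 with LH+BMP6, so the 8 arrays with BMP6 all lay below the 8 without it.

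The falls were many and small. In BMP6 against control 12 genes fell by at least 1.5-fold, in LH+BMP6 against LH 15 did, and 0 fell by 2-fold. Small falls were also the rule over all genes. Of the 9155 genes, 1422 were called lower in BMP6 against control, 1014 of them by less than 1.5-fold and 124 by 2-fold or more. For LH+BMP6 against LH these numbers were not counted over all genes. The median of the called falls was -0.39 and -0.37, against -0.43 in both comparisons over all genes called lower. Individually, 75 of the 91 genes had all 4 BMP6 arrays below all 4 control arrays, which 19.4% of all genes showed. Between LH+BMP6 and LH arrays 70 were separated in this way, against 16.5% of all genes. Fewer cells of a type and less RNA per cell cannot be told apart in these cultures.

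**Figure D1:**
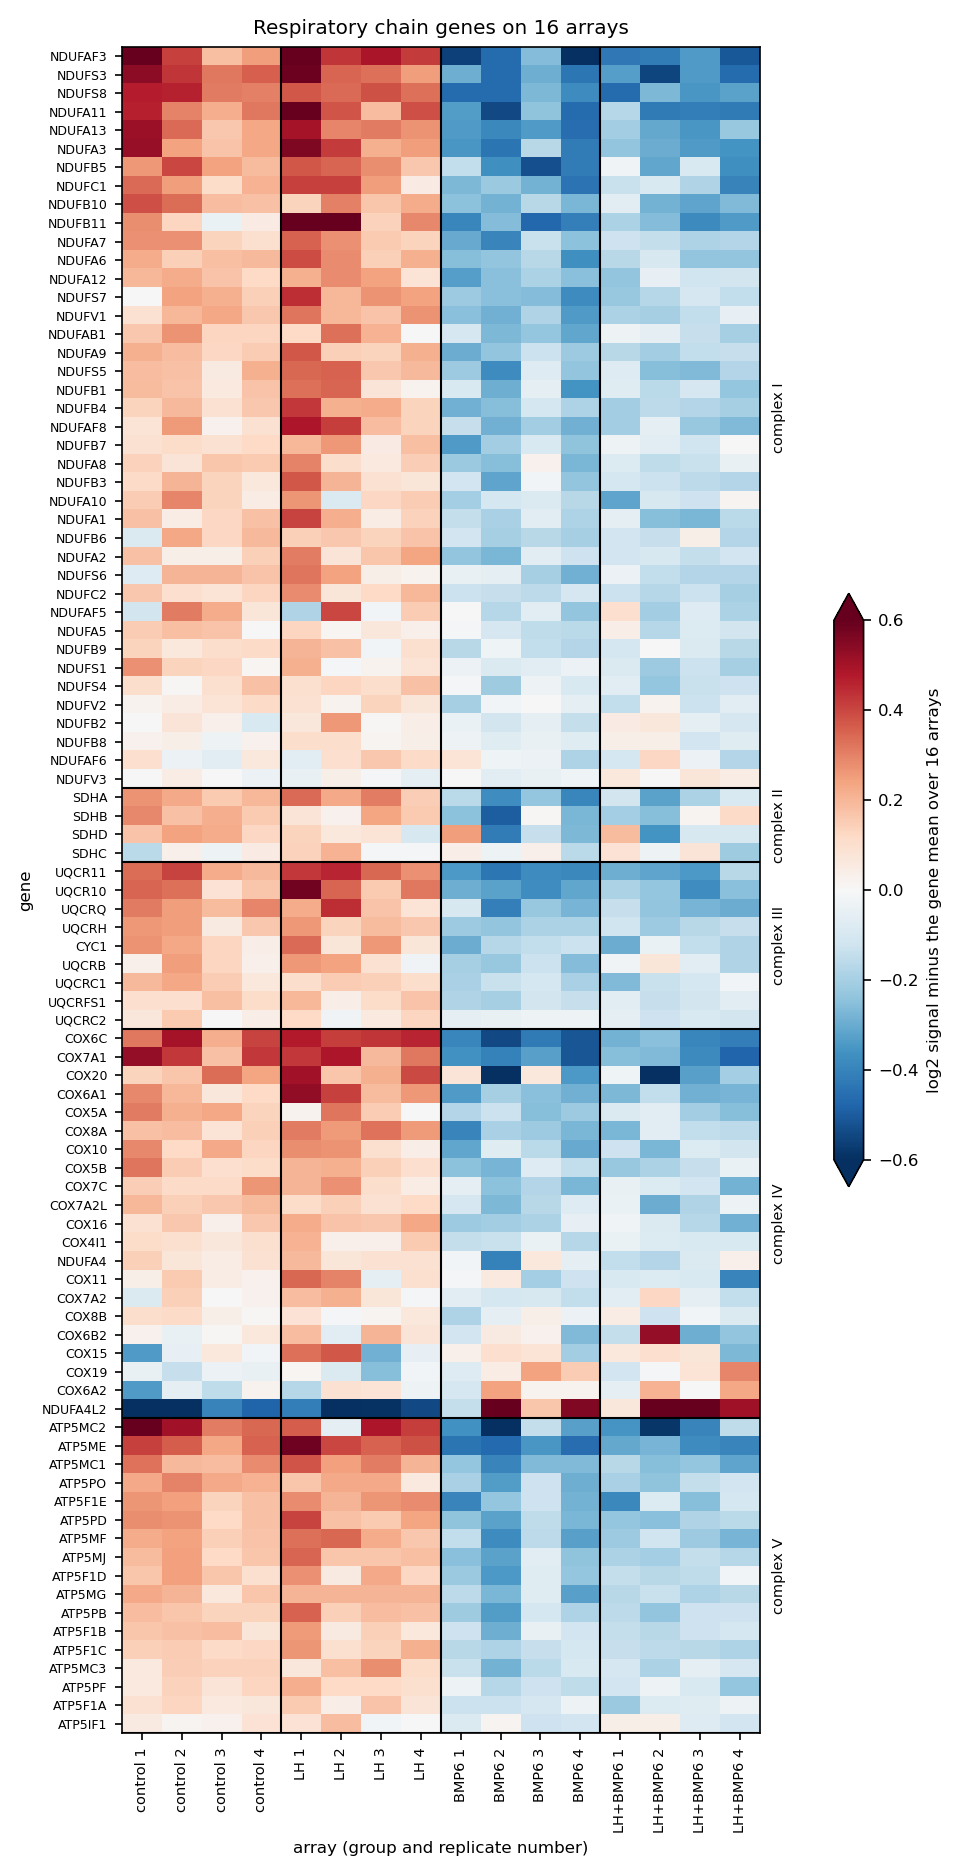
Log2 signal of each of the 91 genes on each of the 16 arrays, shown as the difference from the gene's mean over the arrays (blue lower, red higher, colours saturated beyond ±0.6). Genes are ordered by complex and then by change with BMP6; the blue block of the 8 arrays with BMP6 spans all 5 complexes, and NDUFA4L2 runs the opposite way.

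Complex I, the NADH dehydrogenase, had 33 of its 40 genes lower in each comparison, 32 of them in both, and 0 higher, with medians of -0.35 and -0.33. The largest fall belonged to NDUFAF3, an assembly factor of the complex. Its signal was 9.21, 8.95, 8.72 and 8.79 on the control arrays and 7.98, 8.08, 8.28 and 7.94 with BMP6. With LH it was 9.27, 8.97, 9.03 and 8.96, and with LH+BMP6 8.11, 8.12, 8.20 and 8.03. Arrays with BMP6 thus stood clear of those without it at either LH level. NDUFAF3 fell by 0.85 ± 0.11 without LH (adjusted p = 3.42e-05) and by 0.94 ± 0.11 with it (adjusted p = 1.13e-05). A further probe set of NDUFAF3, with a mean signal of 8.40, was lower by the same test at -0.77 ± 0.09 in both comparisons, and another, dim one (mean signal 3.94) was not called at -0.22 ± 0.09 and -0.01 ± 0.09. The average of all 3 fell by 0.61 and 0.57.

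Of the 6 core subunits, which include those that carry the electrons from NADH to ubiquinone, 4 fell without LH and 5 with it. NDUFS3, part of the arm that reaches into the matrix, read 9.93, 9.82, 9.71 and 9.75 in control and 9.10, 8.93, 9.10 and 8.96 with BMP6. With LH the signals were 9.98, 9.74, 9.72 and 9.64, and with LH+BMP6 they were 9.06, 8.84, 9.05 and 8.93. No array with BMP6 reached the lowest array without it, and the changes were -0.78 ± 0.08 (adjusted p = 7.32e-06) and -0.80 ± 0.08 (adjusted p = 5.32e-06). NDUFS8, which binds iron-sulfur clusters, fell by 0.77 ± 0.07 and 0.71 ± 0.07. NDUFS7, which holds the last cluster before ubiquinone, fell by 0.43 ± 0.07 and 0.45 ± 0.07. For NDUFV1, the subunit that binds NADH and the flavin, the falls were 0.43 ± 0.06 and 0.39 ± 0.06. NDUFV2, its partner, was not called at -0.13 ± 0.06 and -0.16 ± 0.06 (adjusted p = 0.155 and 0.071), though the second change was called without LH+BMP6 replicate 2 (-0.20, adjusted p = 0.0425). NDUFS1, another cluster-bearing subunit, changed by -0.19 ± 0.07 without LH (adjusted p = 0.0573) and fell by 0.24 ± 0.07 with it (adjusted p = 0.0178). Without LH replicate 1 the call moved from the second comparison to the first (adjusted p = 0.0693 and 0.0428), and single other arrays changed either call (adjusted p = 0.0327 in the first without control 4, and 0.0539 in the second without LH+BMP6 2). A dimmer probe set of NDUFS1 gave the reverse calls. It was lower without LH at -0.3 ± 0.09 (adjusted p = 0.0252) and not called with LH at -0.17 ± 0.09 (adjusted p = 0.2). Another, dimmer still, was called in neither comparison. The core of complex I therefore differed unevenly, from NDUFS3 and NDUFS8 down to NDUFV2.

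The 30 accessory subunits surround this core. Without LH 27 fell and with LH 26 did, over ranges of all members from -0.72 to -0.04 and from -0.86 to 0.06. NDUFA11, an accessory subunit of the membrane arm, fell by 0.72 ± 0.11 and 0.79 ± 0.11, which became 0.37 and 0.41 when its probe sets were averaged. NDUFA13, also known as GRIM19, fell by 0.69 ± 0.08 and 0.62 ± 0.08, and NDUFA3 by 0.64 ± 0.09 and 0.67 ± 0.09. NDUFB11 fell by 0.86 ± 0.14 with LH (adjusted p = 0.000441). Its change without LH was -0.49 ± 0.14 (adjusted p = 0.0259), and that call was lost when control 1, control 2, BMP6 3 or BMP6 4 was left out (adjusted p up to 0.17 over the alternatives). The LH arrays of NDUFB11 were 10.94, 10.77, 10.07 and 10.22, the control arrays 10.21, 10.06, 9.89 and 9.98. At the other end NDUFB8 was not called at -0.07 ± 0.05 and -0.10 ± 0.05, nor NDUFV3 at -0.04 ± 0.05 and 0.06 ± 0.05. Assembly factors were mixed: NDUFAF3 and NDUFAF8 fell in both comparisons, while NDUFAF5 and NDUFAF6 (-0.06 ± 0.09 and -0.13 ± 0.09) were called in neither.

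Complex II, succinate dehydrogenase, is also an enzyme of the tricarboxylic acid cycle and has only nuclear-encoded subunits. Its 4 genes did not move alike. SDHA, the flavoprotein that oxidises succinate, read 10.92, 10.88, 10.81 and 10.85 in control and 10.49, 10.28, 10.42 and 10.26 with BMP6. With LH it read 10.99, 10.88, 10.96 and 10.80, and with LH+BMP6 10.54, 10.33, 10.46 and 10.56. The groups with and without BMP6 did not overlap, and SDHA fell by 0.50 ± 0.07 (adjusted p = 0.000102) and 0.43 ± 0.07 (adjusted p = 0.00033). SDHB, the iron-sulfur subunit, read 10.92, 10.81, 10.85 and 10.79 in control and 10.39, 10.14, 10.64 and 10.36 with BMP6. It fell by 0.46 ± 0.10 (adjusted p = 0.003), a call that was lost once the 3 arrays with dim hybridisation controls were left out (adjusted p = 0.0508). In LH+BMP6 against LH it was not called at -0.21 ± 0.10 (adjusted p = 0.161), and the difference between its 2 changes, the interaction, was 0.25 ± 0.14 (adjusted p = 1). The membrane anchors were called in neither comparison. SDHC changed by -0.00 ± 0.08 and -0.10 ± 0.08. SDHD changed by -0.33 ± 0.12 (adjusted p = 0.0697) and -0.13 ± 0.12, and its BMP6 arrays spread more widely (SD 0.29, n = 4) than its control arrays (SD 0.05, n = 4). Without BMP6 replicate 1 the first change was called (-0.46, adjusted p = 0.00562).

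In complex III, which hands electrons from ubiquinone to cytochrome c, 8 of 9 genes fell in each comparison. The small accessory subunits had a median of -0.52 without LH and -0.47 with it, against -0.30 and -0.24 for the 4 core subunits. UQCR11 read 11.00, 11.07, 10.89 and 10.86 in control, 10.32, 10.23, 10.29 and 10.28 with BMP6. The LH arrays read 11.09, 11.12, 11.01 and 10.94, and the LH+BMP6 arrays 10.37, 10.35, 10.32 and 10.50. All arrays with BMP6 lay lower, and UQCR11 fell by 0.67 ± 0.06 (adjusted p = 2.61e-06) and 0.65 ± 0.06 (adjusted p = 3.69e-06). UQCR10, another small subunit, fell by 0.56 ± 0.08 and 0.61 ± 0.08. UQCRQ, a subunit at the ubiquinone side, fell by 0.52 ± 0.08 and 0.47 ± 0.08. UQCRH, the hinge protein that helps cytochrome c dock, fell by 0.39 ± 0.06 and 0.35 ± 0.06.

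Among the core subunits, CYC1, the electron-carrying cytochrome c1, fell by 0.36 ± 0.08 and 0.35 ± 0.08. UQCRFS1, the Rieske iron-sulfur protein, fell by 0.28 ± 0.05 and 0.22 ± 0.05. UQCRC1, a core protein on the matrix side, fell by 0.32 ± 0.06 and 0.26 ± 0.06, but averaging its probe sets, of which the other has a mean signal of 4.03, ended both calls (adjusted p = 0.173 and 0.278). UQCRC2, its partner, was not called without LH at -0.10 ± 0.06 (adjusted p = 0.244). With LH it fell by 0.17 ± 0.06 (adjusted p = 0.0434), a call near the threshold that 20 of 33 alternatives lost (adjusted p 0.0213 to 0.238), 11 of them by leaving out 1 array. These arrays were control 1 and 4, LH 1, 3 and 4, BMP6 1, 3 and 4, and LH+BMP6 2, 3 and 4, with adjusted p from 0.051 to 0.113. UQCRB, which binds near the ubiquinone site, fell by 0.32 ± 0.08 without LH and was not called at -0.19 ± 0.08 with it (adjusted p = 0.0824; interaction 0.12 ± 0.11).

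**Figure D2:**
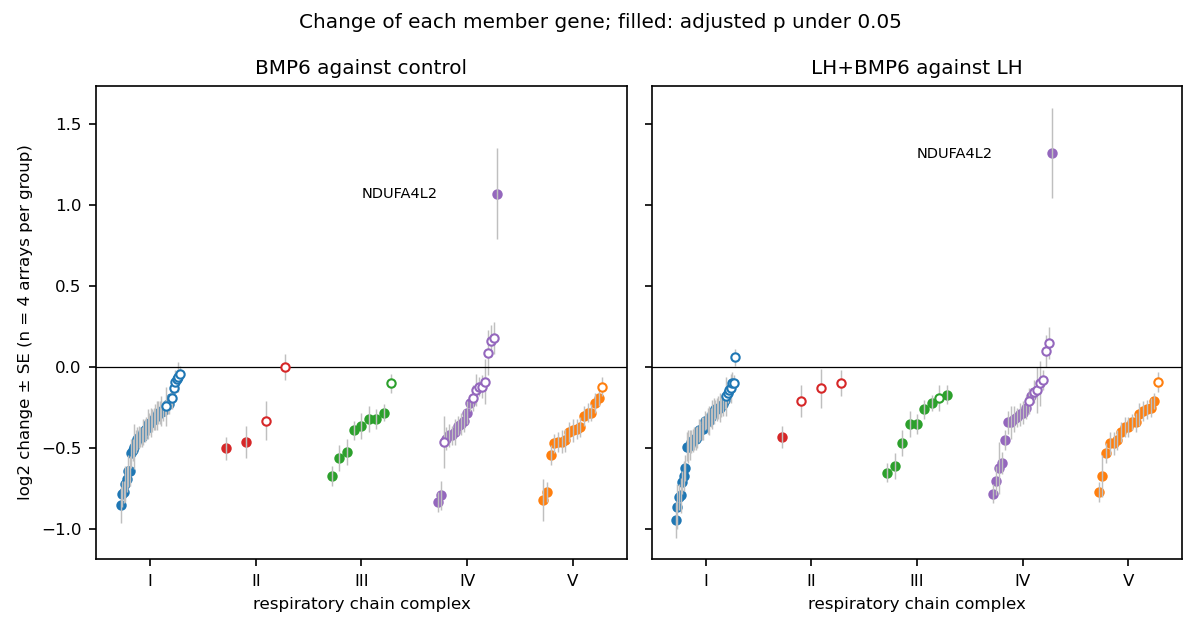
Log2 change ± SE of each gene by complex, for BMP6 against control and LH+BMP6 against LH (n = 4 arrays per group; filled points have an adjusted p under 0.05, open points do not). Complex V has 16 of 17 filled points in both panels and complex IV the widest spread, from COX6C at -0.83 and -0.78 to NDUFA4L2 at 1.07 and 1.32.

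Complex IV, cytochrome c oxidase, was mixed. Without LH 11 of its 21 genes fell, 1 rose and 9 were not called, and with LH 13 fell and 1 rose. Of the 13 structural subunits 8 fell in each comparison. COX6C, a small membrane subunit, read 12.14, 12.32, 12.04 and 12.23 in control and 11.43, 11.28, 11.40 and 11.31 with BMP6. With LH it was at 12.30, 12.24, 12.25 and 12.28, and with LH+BMP6 at 11.54, 11.57, 11.43 and 11.41. The gap between the groups was several times the spread within them, and COX6C fell by 0.83 ± 0.06 (adjusted p = 2.93e-07) and 0.78 ± 0.06 (adjusted p = 5.71e-07). COX4I1, which takes part in the regulation of the enzyme by ATP, fell by 0.22 ± 0.05 (adjusted p = 0.00862) and 0.18 ± 0.05 (adjusted p = 0.0223). Without replicate 4 of all groups the first call was lost (adjusted p = 0.0923). The second was lost without LH replicate 1 (adjusted p = 0.0833), LH replicate 4 (adjusted p = 0.0628) or LH+BMP6 replicate 3 (adjusted p = 0.0575). COX7A2L, which joins complexes III and IV into supercomplexes, fell by 0.33 ± 0.07 and 0.25 ± 0.07.

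Several complex IV subunits exist as a general and a tissue-restricted isoform, and the isoforms changed by different amounts. For these pairs the difference of the 2 log2 signals was taken on each array and compared by an exact two-sided permutation test, 4 against 4 arrays. The smallest p it allows is 0.0286, and 14 such tests were made. COX7A1, the heart and muscle form of subunit VIIa, read 10.35, 10.25, 10.00 and 10.25 in control and 9.46, 9.42, 9.50 and 9.31 with BMP6. Its LH arrays read 10.25, 10.31, 10.02 and 10.14, its LH+BMP6 arrays 9.57, 9.56, 9.44 and 9.35. These groups were clearly apart, with changes of -0.79 ± 0.09 (adjusted p = 1.03e-05) and -0.70 ± 0.09 (adjusted p = 2.64e-05). COX7A2, the general form, read 11.43, 11.66, 11.52 and 11.54 in control and 11.45, 11.41, 11.42 and 11.37 with BMP6, which overlap. It was not called at -0.12 ± 0.07 (adjusted p = 0.251) and -0.15 ± 0.07 (adjusted p = 0.141), and without LH+BMP6 replicate 2 the latter was called (-0.21, adjusted p = 0.0489). COX7A1 changed by 0.66 ± 0.10 more than COX7A2 without LH (difference -0.66, exact p = 0.0286, adjusted p = 0.0364) and by 0.55 ± 0.06 more with LH (difference -0.55, the same p values).

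Subunits VIa and VIII differed between isoforms too. COX8A, the general form, fell by 0.42 ± 0.06 and 0.45 ± 0.06, while COX8B, the heart form, was not called at -0.12 ± 0.06 and -0.08 ± 0.06. The difference was -0.30 ± 0.03 and -0.36 ± 0.08 (exact permutation p = 0.0286, adjusted p = 0.0364 for each). The second was lost when any 1 of the 4 LH arrays was left out (adjusted p = 0.0667, 0.0615, 0.0667 and 0.0667), at -0.39 to -0.34. COX6A1, the general form of subunit VIa, fell by 0.44 ± 0.07 and 0.59 ± 0.07, and COX6A2, the muscle form, was not called at 0.18 ± 0.10 and 0.10 ± 0.10. COX6A2 read near the arrays' lower quartile, and the probe set of COX6A1 is of a kind that can match several transcripts. A second COX6A1 probe set (mean signal 5.75) was not called at -0.01 ± 0.15 and -0.16 ± 0.15, and the average of both was called in the second comparison alone (-0.23, adjusted p = 0.138, and -0.38, adjusted p = 0.0123). Read from the brighter COX6A1 probe set, the difference between these isoforms was -0.62 ± 0.12 and -0.69 ± 0.14 (exact permutation p = 0.0286, adjusted p = 0.0364 for each), but a probe set as dim as that of COX6A2 cannot show a fall. The muscle form thus changed more than the general form in VIIa, and less in VIII. COX6B2, the testis form of subunit VIb, was not called at -0.09 ± 0.14 and -0.14 ± 0.14, the second of which was called without LH+BMP6 replicate 2 (-0.32, adjusted p = 0.0316).

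NDUFA4L2 was the exception among the 91 genes. It encodes a relative of the complex IV subunit NDUFA4 and is known as a gene induced under low oxygen. Its signal was 5.71, 5.74, 6.10 and 6.02 in control and 6.36, 7.76, 6.67 and 7.06 with BMP6. With LH it was 6.09, 5.70, 5.91 and 5.96, and with LH+BMP6 6.57, 8.14, 7.24 and 7.01. Every array with BMP6 lay above every array without it, and replicate 2 was the highest in both BMP6 groups. NDUFA4L2 rose by 1.07 ± 0.28 (2.10-fold, adjusted p = 0.013) and 1.32 ± 0.28 (2.50-fold, adjusted p = 0.0028). The first call was lost without replicate 4 (1.08, adjusted p = 0.0825) and once the 3 arrays with dim hybridisation controls were left out (1.08, adjusted p = 0.0804). Without replicate 2 the rises were 0.76 and 0.95, both called (adjusted p = 0.0161 and 0.0031). A dimmer probe set of NDUFA4L2 (mean signal 5.59) was not called at 0.19 ± 0.13 and 0.17 ± 0.13, and the average of both probe sets rose by 0.63 and 0.75. NDUFA4 itself was not called at -0.19 ± 0.08 (adjusted p = 0.12) and -0.21 ± 0.08 (adjusted p = 0.086; 0.0151 without BMP6 replicate 2). NDUFA4 changed by 1.26 ± 0.41 and 1.53 ± 0.36 less than its relative (differences -1.26 and -1.53, exact permutation p = 0.0286, adjusted p = 0.0364 for each). The first was lost when any 1 of the 4 control arrays was left out (adjusted p = 0.0667, 0.0667, 0.0667 and 0.0615), at -1.35 to -1.18.

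Factors that build complex IV were divided. COX10, which with COX15 makes the haem A of the enzyme, fell by 0.40 ± 0.08 and 0.32 ± 0.08, and COX16 fell by 0.28 ± 0.07 and 0.34 ± 0.07. COX11, which inserts copper, was not called without LH at -0.14 ± 0.10 and fell by 0.34 ± 0.10 with it (interaction -0.20 ± 0.14, not called). That fall was lost without LH replicate 1 or 2 or LH+BMP6 replicate 4 (adjusted p up to 0.106 over the alternatives). COX20, a chaperone of a copper-bearing subunit, changed by -0.46 ± 0.16 without LH (adjusted p = 0.0589) and fell by 0.62 ± 0.16 with it (adjusted p = 0.0112), and its interaction of -0.16 ± 0.23 was not called. COX15 and the copper carrier COX19 were called in neither.

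**Figure D3:**
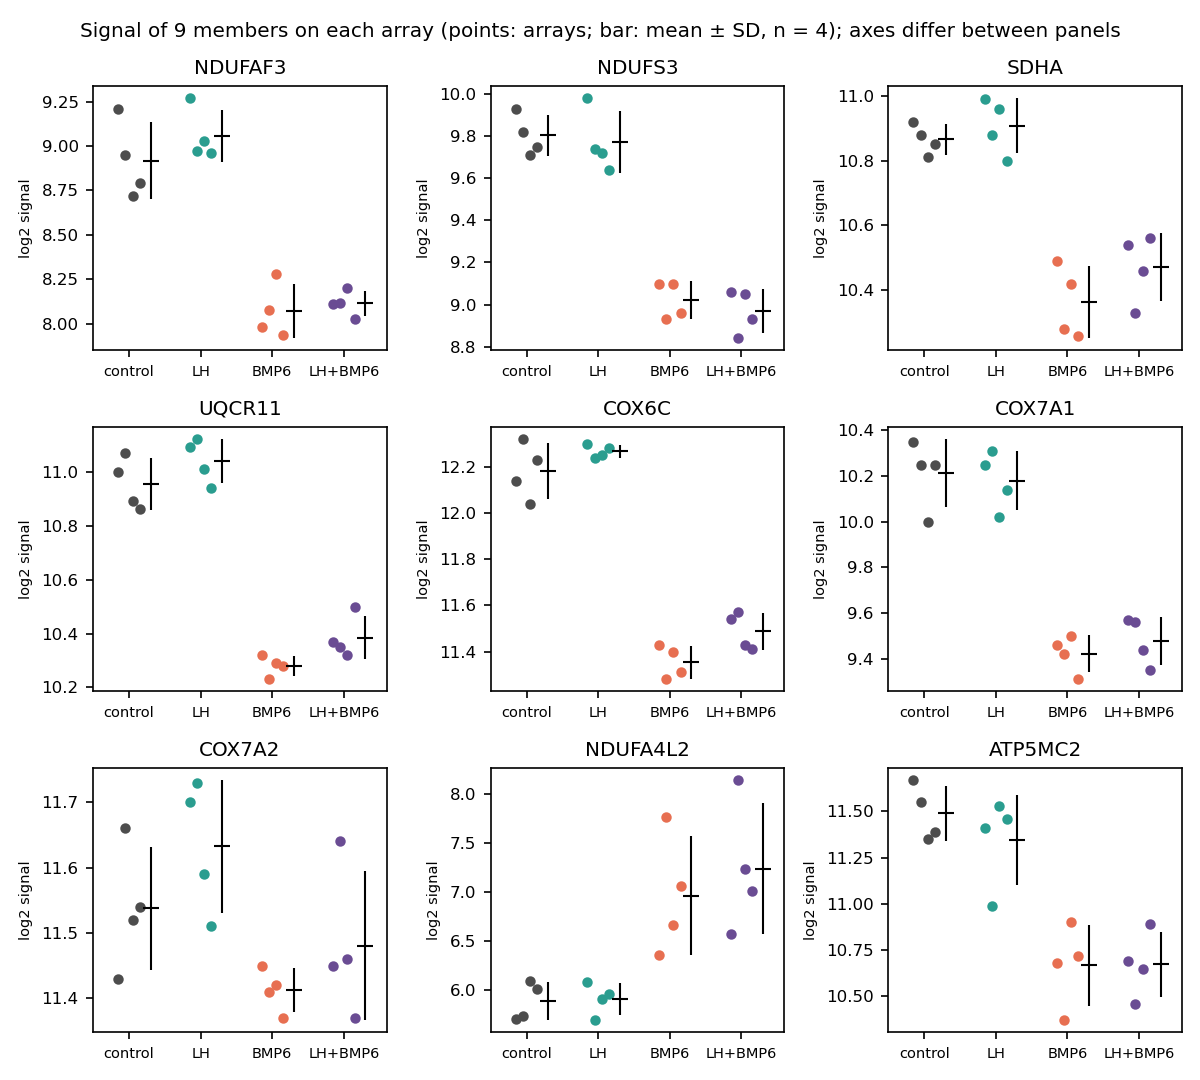
Log2 signal of 9 genes on each array, with the group mean ± SD (n = 4) beside the points; the vertical axes differ between panels. In 7 panels the arrays with BMP6 lie below all others, COX7A2 overlaps between groups, and NDUFA4L2 lies higher with BMP6.

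In complex V, ATP synthase, all 16 structural subunits fell in both comparisons, and the medians over the 17 genes were -0.39 and -0.37. Its inhibitor ATP5IF1 was not called at -0.12 ± 0.06 and -0.09 ± 0.06. In the catalytic head and central stalk the 5 changes ranged from -0.46 (ATP5F1E) to -0.19 without LH and from -0.47 to -0.21 with it. ATP5F1A, the alpha subunit, read 12.49, 12.53, 12.46 and 12.47 in control and 12.27, 12.27, 12.30 and 12.37 with BMP6. It fell by 0.19 ± 0.05 (adjusted p = 0.0218) and 0.21 ± 0.05 (adjusted p = 0.00854). Leaving out a single array, control 1, control 2, BMP6 1 or BMP6 2, ended the first call (adjusted p = 0.0516, 0.0682, 0.0519 and 0.0533), and averaging its probe sets ended both (adjusted p = 0.109 and 0.676). ATP5F1B, the catalytic beta subunit, fell by 0.30 ± 0.06 and 0.26 ± 0.06. Both calls of ATP5F1B depended on reading its brighter probe set, since the average with a probe set of mean signal 4.97 was not called (adjusted p = 0.953 and 0.0811). ATP5F1D, the delta subunit, fell by 0.39 ± 0.07 and 0.29 ± 0.07, while its other probe set (mean signal 7.30) was not called at 0.28 ± 0.15 and 0.33 ± 0.15, and the average of both was called in neither (adjusted p = 0.715 and 0.894).

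In the proton ring and in the 8 subunits of the peripheral stalk and membrane part the medians were -0.54 and -0.42 without LH and -0.53 and -0.38 with it, against -0.30 and -0.29 in the head and central stalk. ATP5MC1, ATP5MC2 and ATP5MC3 encode the same c subunit of the ring behind different import sequences. ATP5MC2 read 11.67, 11.55, 11.35 and 11.39 in control and 10.68, 10.37, 10.90 and 10.72 with BMP6. With LH it read 11.41, 10.99, 11.53 and 11.46, and with LH+BMP6 10.69, 10.46, 10.65 and 10.89. LH replicate 2 came closest to the arrays with BMP6 but lay above all of them, and ATP5MC2 fell by 0.82 ± 0.13 (adjusted p = 0.000243) and 0.67 ± 0.13 (adjusted p = 0.00106). ATP5MC1 fell by 0.54 ± 0.06 and 0.53 ± 0.06, and ATP5MC3 by 0.28 ± 0.06 and 0.27 ± 0.06. ATP5MC3 changed less than ATP5MC1 by 0.25 ± 0.06 and 0.26 ± 0.07 on the log2 scale (differences -0.25 and -0.26, exact permutation p = 0.0286, adjusted p = 0.0364 for each; the second was lost without LH+BMP6 replicate 4, adjusted p = 0.0615). Against ATP5MC2 the difference was -0.54 ± 0.13 (exact permutation, adjusted p = 0.0364; 0.0667 without control 1 or control 2) without LH and -0.41 ± 0.15 with it (exact permutation p = 0.0571, adjusted p = 0.0615; 0.0364 without LH replicate 2). Between ATP5MC1 and ATP5MC2 the test was not passed, with differences of 0.28 ± 0.10 (exact permutation, adjusted p = 0.0615; 0.0333 without BMP6 replicate 3) and 0.15 ± 0.15 (exact permutation p = 0.343).

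ATP5ME, subunit e of the membrane part, which helps synthase dimers form, had the largest fall among the stalk and membrane subunits. It read 11.15, 11.10, 10.97 and 11.09 in control and 10.30, 10.27, 10.39 and 10.28 with BMP6. With LH its signal was 11.32, 11.14, 11.09 and 11.12, and with LH+BMP6 10.43, 10.46, 10.36 and 10.34. Both pairs of groups were well apart, at -0.77 ± 0.06 without LH (adjusted p = 6.51e-07) and -0.77 ± 0.06 with it (adjusted p = 5.71e-07). The 8 stalk and membrane subunits ranged from -0.77 to -0.22 and from -0.77 to -0.25.

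The changes without and with LH ran the same way. The comparisons share no array, but their calls are not independent, since both use the same estimate of spread per gene from all 16 arrays. In both, 67 of the 91 genes (73.6%) fell, where 11.8% of all genes did. That is 95.7% of those lower without LH and 94.4% of those lower with LH. NDUFA5, SDHB and UQCRB were called in the first and not the second, NDUFS1, UQCRC2, COX11 and COX20 in the second and not the first, and the interaction was called for 0 of these. In neither comparison were 16 called: NDUFAF5, NDUFAF6, NDUFB2, NDUFB8, NDUFV2, NDUFV3, SDHC, SDHD, COX6A2, COX6B2, COX7A2, COX8B, COX15, COX19, NDUFA4 and ATP5IF1. A second probe set of NDUFB2 (mean signal 8.85) was not called without LH at -0.32 ± 0.12 (adjusted p = 0.0703). With LH it was called lower at -0.36 ± 0.12 (adjusted p = 0.0388). For NDUFS1 a dimmer probe set was called lower without LH and not with it. Across the 91 genes, which are not independent replicates and share the probe-set design, the changes correlated at r = 0.94 (rho = 0.89), and at r = 0.91 over the 90 without NDUFA4L2. The same r over all genes was 0.92. Change and mean signal were hardly related (rho = -0.07 and -0.05 over the 91 genes). Of the 7 members with a mean signal under 7, 0 fell without LH and 1 (COX20) with it.

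**Figure D4:**
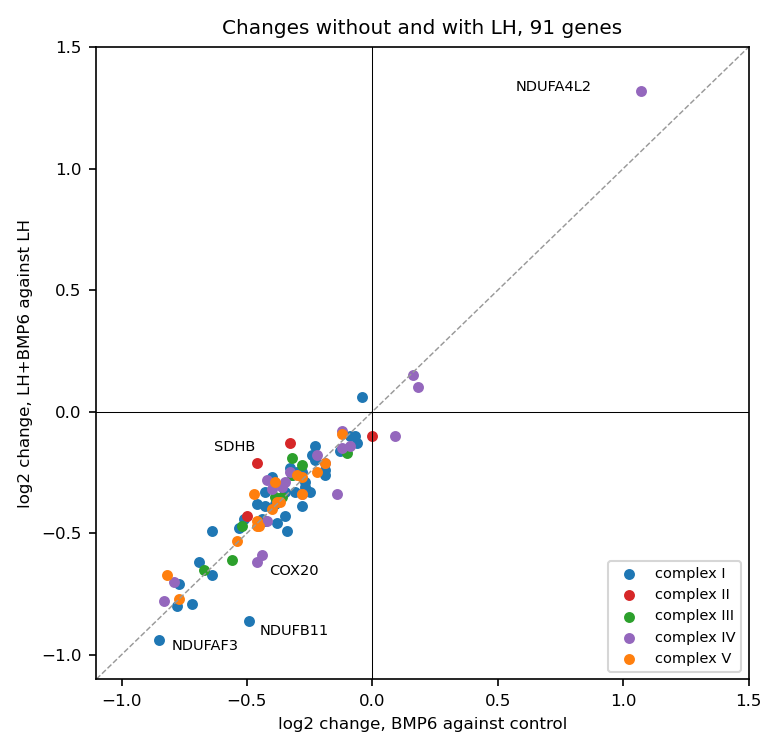
Log2 change of each of the 91 genes in BMP6 against control (horizontal) and LH+BMP6 against LH (vertical), coloured by complex, with the line of equal change dashed. Points follow the line (r = 0.94), with NDUFB11 and COX20 below it, SDHB above it and NDUFA4L2 alone at the upper right.

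LH moved none of these genes past the threshold. In LH against control 0 of the 91 genes were called either way (0.0218% of all genes were called higher and 0 lower), and the median change was 0.04. At an unadjusted limma p under 0.05, 4 were higher and 0 lower (3.27% and 2.15% of all genes). The smallest p values belonged to NDUFB11 (0.47 ± 0.14, adjusted p = 0.704) and COX6A1 (0.18 ± 0.07, adjusted p = 0.907). In NDUFB11 the change was carried by LH replicates 1 and 2, at 10.94 and 10.77. On top of BMP6, LH also gave 0 calls among the 91 genes and 0 among all genes, with 1 of the 91 higher and 0 lower at an unadjusted p under 0.05 (0.721% and 0.677% of all genes). That gene was NDUFB7 (0.17 ± 0.07), followed by COX6C (0.13 ± 0.06). For the interaction of LH and BMP6 the smallest adjusted p among the 91 genes was 1, and 0 reached an unadjusted p under 0.05 in either direction (1.35% and 1.53% of all genes). SDHB (0.25 ± 0.14) and NDUFB11 (-0.37 ± 0.20) had the smallest unadjusted p. The SE of an interaction was larger than that of a change, with a median of 0.144 over all probe sets. Differences of the size seen for SDHB and NDUFB11 were not detectable with 4 arrays per group. Set against control, LH+BMP6 gave 68 genes lower and 1 higher (15.2% and 10.9% of all genes), led by NDUFS3 at -0.83 ± 0.08, ATP5MC2 at -0.82 ± 0.13 and NDUFAF3 at -0.80 ± 0.11.

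Genes outside the symbol rule that serve the chain were grouped in lists, whose counts stand against the 15.5% of all genes called lower in each comparison and the 9.31% and 11.7% called higher. Of 19 further assembly factors measured, 11 fell without LH and 12 with it, with medians of -0.32 and -0.34 and 0 higher. FOXRED1, needed for complex I, fell by 0.77 ± 0.13 and 0.91 ± 0.13, and TMEM70, needed for ATP synthase, by 0.65 ± 0.11 and 0.71 ± 0.11. Among 25 genes of protein import and inner-membrane organisation 15 and 16 fell and 0 rose. HSPE1, the mitochondrial co-chaperonin, fell by 0.69 ± 0.09 and 0.63 ± 0.09, and TOMM7 of the outer-membrane import pore fell by 0.60 ± 0.08 and 0.63 ± 0.08. These neighbours of the chain had medians close to its own, against -0.02 and -0.03 for all genes.

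Genes that feed electrons to the chain and those of the tricarboxylic acid cycle were also measured. Of 11 electron carriers and feeder dehydrogenases 5 fell and 1 rose in each comparison. COQ6, of ubiquinone synthesis, fell by 0.57 ± 0.11 and 0.59 ± 0.11, while GPD2, which passes electrons from cytosolic glycerol 3-phosphate to ubiquinone, rose by 0.68 ± 0.13 in both. In the tricarboxylic acid cycle 5 of 15 genes fell without LH and 7 with it, and SUCLA2, a subunit of succinyl-CoA ligase, rose by 0.41 ± 0.11 and 0.38 ± 0.11. IDH3G fell by 0.51 ± 0.09 and 0.34 ± 0.09, and MDH2 by 0.34 ± 0.06 and 0.37 ± 0.06. For the cycle the medians were -0.21 and -0.21.

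Carriers, regulators and hypoxia-linked genes formed 3 further lists. Of 11 carriers, uncoupling proteins and channels 3 fell in each comparison (medians -0.04 and -0.08): SLC25A6, an ADP/ATP carrier, by 0.66 ± 0.13 and 0.58 ± 0.13, the channel VDAC1 by 0.33 ± 0.09 and 0.29 ± 0.09, and CKMT2, the muscle-type mitochondrial creatine kinase, by 0.30 ± 0.08 and 0.32 ± 0.08. Of 12 regulators of mitochondrial biogenesis 0 were called without LH and 1 with it. That gene was TFB1M, a methylase of mitochondrial ribosomal RNA, at -0.13 ± 0.09 (adjusted p = 0.38) and -0.38 ± 0.09 (adjusted p = 0.0068). NRF1, a transcription factor of respiratory genes, was not called at -0.10 ± 0.09 and -0.08 ± 0.09, nor PPARGC1A, a coactivator of mitochondrial biogenesis, at 0.20 ± 0.11 and 0.19 ± 0.11. Among 11 hypoxia-linked mitochondrial genes 3 rose and 1 fell without LH, and 2 rose and 1 fell with it. BNIP3, a mitophagy receptor, rose by 1.53 ± 0.26 and 1.25 ± 0.26, and PDK3, a kinase that turns off pyruvate dehydrogenase, rose by 0.66 ± 0.11 and 0.60 ± 0.11. ISCU, the scaffold for iron-sulfur clusters, fell by 0.27 ± 0.08 and 0.26 ± 0.08. In LH against control 0 genes of these lists were called.

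**Figure D5:**
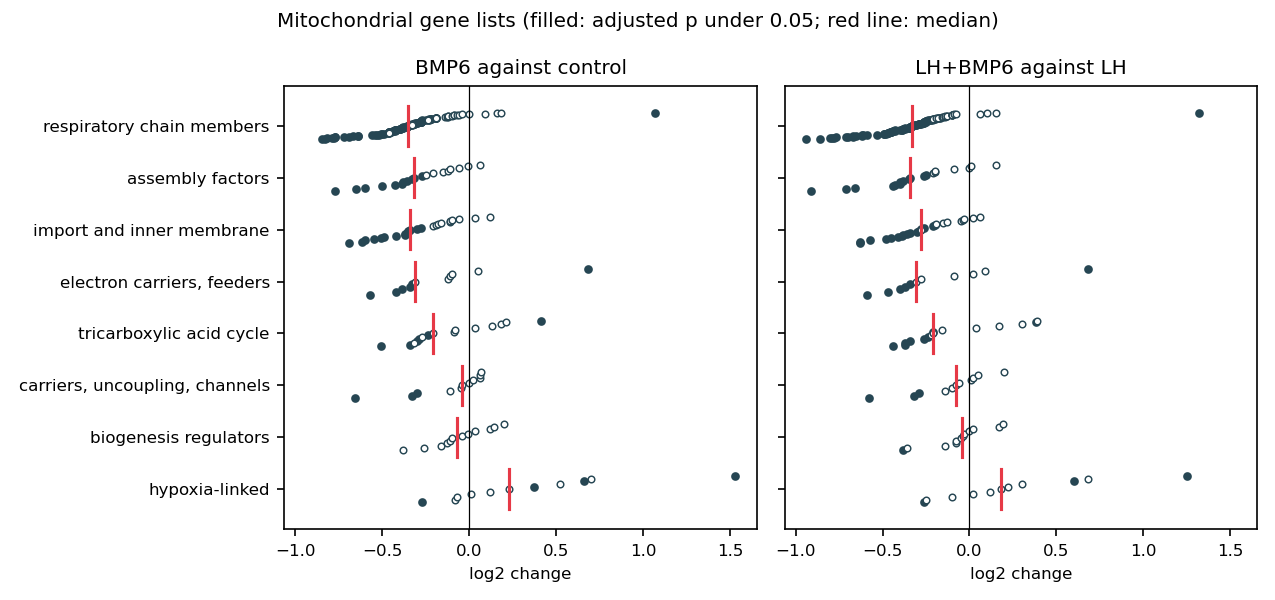
Log2 change of each gene of 7 mitochondrial lists and of the 91 respiratory chain genes in BMP6 against control and LH+BMP6 against LH (filled points have an adjusted p under 0.05, red lines are medians). The medians of the assembly and import lists lie near that of the 91 genes at -0.35 and -0.33, those of the carrier and biogenesis lists lie near 0, and the hypoxia-linked median is above 0 (0.23 and 0.18).

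Other measures moved with BMP6 beside these falls. Of all genes 15.5% were called lower in each comparison, and 9.31% without LH and 11.7% with it were called higher. The counts for the short marker lists stand against these shares. Of 6 theca markers 5 fell without LH and 6 with it, CYP11A1 among them by 2.21 ± 0.16 and 2.61 ± 0.16, and their mean per array lay at 9.86 to 10.41 in control and 10.39 to 11.67 with LH. On arrays with BMP6 it lay at 7.14 to 7.51, and on those with LH+BMP6 at 7.10 to 7.95. Of 6 leukocyte markers 1 rose without LH and 5 with it, and their mean per array lay at 7.19 to 7.27 in control, 6.73 to 7.40 on LH arrays, 7.34 to 8.08 on BMP6 arrays and 7.66 to 8.10 on LH+BMP6 arrays. The granulosa list had 1 and 2 of 6 higher, with means per array of 5.37 to 5.82 without BMP6 and 5.78 to 6.00 with it. The pericyte and fibroblast list had 2 and 2 of 6 higher and 0 and 1 lower (8.97 to 9.59 and 9.33 to 9.73). The endothelial list had 1 of 6 lower in each (5.92 to 6.65 and 5.64 to 6.22), and the red blood cell list 0 of 3 called (4.13 to 4.41 on all arrays). RNA quality was read from actin and GAPD probe sets at the 3 prime and 5 prime ends of the transcript. For actin their difference was 2.20 ± 0.35 on control arrays and 2.10 ± 0.16 on LH arrays, and 1.86 ± 0.28 on BMP6 arrays and 1.72 ± 0.28 on LH+BMP6 arrays (SD, n = 4). The same difference for GAPD was 0.29 to 0.41 in control and 0.18 to 0.27 with BMP6, which do not overlap. It was 0.15 to 0.41 with LH and 0.11 to 0.16 with LH+BMP6. The part of these markers and of RNA quality in the respiratory chain changes was not tested. On the 13 arrays with bright hybridisation controls alone, 61 of the 91 genes fell and 0 rose in BMP6 against control, and 58 fell and 1 rose in LH+BMP6 against LH, with medians of -0.36 and -0.30. The shares of all genes called on these 13 arrays were not counted. The 15.5% above belongs to the fit over all 16 arrays and is no background for these counts.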

How the data were processed

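The deposited log2 signals were made by the authors, per the submitters' processing notes, with the robust multi-array average (RMA) in Affymetrix Expression Console, version not given in the sources used here. RMA gives all arrays the same distribution, so a change shared by most transcripts would not show. Values were used as they stand. Of 24128 probe sets 112 controls were left out and 24016 tested, with no filter on signal; 13292 have 1 gene symbol, 86 several and 10638 none. All 91 members were found by Entrez identifier in RefSeq, and 0 symbols changed. Of the members 24 have several probe sets, 28 further ones in all, of which 18 have a mean signal under 6. In BMP6 against control and in LH+BMP6 against LH, 5 of the 28 were called lower and 0 higher. Of all named genes, read from the brightest probe set, 15.5% were called lower in each. The counts of members called thus hold for the brightest probe set of each gene.

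Group means over all 16 arrays were fitted with lmFit and eBayes (with an intensity trend) of limma 3.58.1 in R 4.3.3, and p-values were adjusted by Benjamini-Hochberg over all probe sets. P-values measure the spread between the repeat experiments. The fit was tested on simulated data. Isoform differences used exact permutation, adjusted over 14 tests. Figures used matplotlib 3.10.9.

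The members and lists were chosen with earlier results of these data known. Named genes were the 10 largest called changes each way, catalytic subunits, isoform pairs, the brightest and dimmest member of each complex, and up to 3 called genes each way per list. Other members and list genes named were chosen after their values were seen. Alternatives covered normalization, probe sets, eBayes settings, replicate blocks and left-out arrays. Promoter motifs are not analysed here.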

Additional observations from a re-analysis of the deposited data

Results flagged for a closer look

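In 8 of the 176 groups of 4 arrays examined for the named genes, 1 array lay far from the other 3 for the range of its group (Dixon's test at the 95% level). Chance alone gives about 1 in 20 groups. With LH+BMP6, ATP5F1D read 8.40 on replicate 4 (others 8.25 to 8.27), COX6A1 12.13 on replicate 2 (others 11.99 to 12.01) and NDUFA11 8.63 on replicate 1 (others 8.38 to 8.39). NDUFA4 read 11.96 on LH replicate 1 (others 11.84 to 11.86). In control, replicate 3 read 11.55 for COX4I1 (others 11.58 to 11.59), 11.29 for NDUFB8 (others 11.35 to 11.36) and 10.62 for UQCRFS1 (others 10.54 to 10.55), and replicate 1 read 11.86 for ATP5MC3 (others 11.94 to 11.95). Each of these gaps was under 0.3 on the log2 scale.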

How the results depend on the processing

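Over 33 alternatives, 45 of the 71 calls in BMP6 against control, 48 of 72 in LH+BMP6 against LH and 39 of 69 in LH+BMP6 against control were kept in all. With arrays or replicate numbers left out, lower calls ranged from 55 to 71, from 55 to 71 and from 46 to 68, and higher calls from 0 to 1, 1 to 1 and 1 to 1. Under the other settings lower calls ranged from 60 to 73, from 58 to 72 and from 51 to 72. The single higher call in BMP6 against control became 0 once the 3 arrays with dim hybridisation controls were left out. LH against control, LH+BMP6 against BMP6 and the interaction kept 0 calls among the members in every setting run. Reversed signs came from the choice of probe set: ATP5F1D changed by 0.02 in LH+BMP6 against LH and 0.07 in LH+BMP6 against control with the mean of its probe sets, and COX6A1 by 0.01 in LH+BMP6 against control without probe sets that can match several transcripts.

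With the replicate number as a block, the counts of higher and lower members were 1 and 73, 1 and 71, and, for LH+BMP6 against control, 2 and 72, where COX6A2 joined NDUFA4L2. Of all genes 17.8%, 17.6% and 17.7% were then called lower. In BMP6 against control the block added COX20, NDUFS1 and SDHD (adjusted p = 0.0161, 0.0292 and 0.0221). In LH+BMP6 against LH it added UQCRB (0.0346) and lost NDUFA10 (0.0589). In LH+BMP6 against control it also added COX11, NDUFB11, NDUFS6 and SDHD (0.0458, 0.0155, 0.0446 and 0.0493). The main fit did not pair arrays by number, since the sample labels do not state that equal numbers mark the same batch of ovaries. Deviations of same-numbered arrays correlated at 0.03, -0.11, 0.15 and 0.08 for BMP6 and control and at 0.17, 0.27, 0.09 and 0.26 for LH+BMP6 and LH. They correlated at 0.32, 0.02, 0.14 and 0.15 for LH and control and at 0.51, 0.69, 0.08 and 0.24 for LH+BMP6 and BMP6. In these comparisons, in this order, same-numbered arrays averaged 0.04, 0.2, 0.16 and 0.38. Arrays of different numbers averaged -0.01, -0.07, -0.05 and -0.12. In the first pair of comparisons 4 and 7 of 8 arrays, and in the second 5 and 5, correlated best with their own number. As a random block the number had a correlation of 0.099. Signal over background was not estimated, which limits what the dimmest members can show.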
